A study of Mus musculus with 12 samples.

Results

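The nuclear-encoded subunits of the mitochondrial respiratory chain and ATP synthase were followed through B cell activation by RNA sequencing. Members were taken by gene symbol as the Ndufa, Ndufb, Ndufc, Ndufs and Ndufv genes of complex I, Sdha to Sdhd of complex II, the Uqcr genes and Cyc1 of complex III, Cycs (cytochrome c), the Cox4 to Cox8 genes of complex IV and the Atp5 genes of ATP synthase, with genes that RefSeq lists as pseudogenes left out. The rule gave 88 of the 27179 genes in the deposited table: 39 of complex I, 4 of complex II, 9 of complex III, 1 for cytochrome c, 18 of complex IV and 17 of ATP synthase. It used no measured value. Of the 88, 81 passed the filter on low counts and were tested, 3 lie on the X chromosome and were tested in a separate fit, and 4 had too few counts.

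Oxidative phosphorylation couples the oxidation of NADH and succinate to the making of ATP. Complex I (NADH dehydrogenase) and complex II (succinate dehydrogenase) pass electrons to ubiquinone, complex III passes them on to cytochrome c, and complex IV (cytochrome c oxidase) passes them to oxygen. Complexes I, III and IV pump protons across the inner mitochondrial membrane, and ATP synthase lets them flow back. Apart from complex II, each complex is built from subunits of both genomes, so that nuclear and mitochondrial transcripts are both needed. Resting lymphocytes are small cells with a low metabolic rate, and activation is known to raise both glycolysis and respiration.

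The 12 libraries came from splenic B cells of male C57BL/6 mice, 6 to 12 weeks of age in the study's methods, as 2 biological replicates for each of 6 stages. Naive B cells received no treatment and were sorted as TCRβ-, B220+, IgM+ and IgD high. Cells isolated by negative selection were labelled with CellTrace Violet, stimulated with 25 µg/ml lipopolysaccharide (LPS) and sorted at 3, 10 and 33 h as CD69+ cells that had not divided. Expanded B cells were gated as CD22+ without CD138, and plasmablasts as CD138+ without CD22, both from LPS cultures harvested on day 4, which had been set up at a lower cell density. The labels give no transgene or deletion for any library, and the stages differ in time, gate and culture at once. The labels do not tie replicates of different stages to the same mice.

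Total counts ran from 23026619 to 60585587 per library, of which the members took 0.655% to 1.34%. Levels are given as RPKM (read counts scaled for exon length and for library size, the latter by TMM), so that genes of different length can be set side by side. A call means an adjusted p under 0.05 by edgeR's glmTreat, which tests for a change of more than 1.5-fold, and edgeR's quasi-likelihood F-test was used beside it for changes of any size. In simulated libraries of this size, glmTreat found 36% of genes that fell 2-fold and 40% of genes that rose 2-fold. There 12126 of 12326 genes were left unchanged. In the data 21% of genes were called higher and 24.3% lower from naive cells to 3 h. The adjusted p depends on the share of changed genes, so the simulated rates need not hold for the tests below. The summed RPKM of 5 B cell markers fell from 6440 ± 110 (SD, n = 2) in naive cells to 1944 ± 6.55 in plasmablasts, and that of 5 plasmablast markers rose from 145 ± 4.59 to 10743 ± 116. Of other cell types, 7 myeloid markers summed to 406 and 163 RPKM in the naive libraries and 6 erythroid markers to 454 and 351, against at most 9.74 and 11.5 in the libraries of any other stage, and 6 T cell markers to at most 11.4. In bulk samples of this kind, fewer cells of a type and less RNA per cell cannot be told apart.

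Promoters are shown first for members whose RNA moved early. Several genes of the respiratory chain are textbook targets of nuclear respiratory factor 1 (NRF-1), and its part in these changes was not tested. RefSeq promoter windows (GRCm38.p6, 250 bases before to 50 after the start) were found for 70 of the 88 members. The letters GCGCANGCG, the core of the NRF-1 site, were present on either strand in 21 of them, or 30%, against 7.03% of the 27025 genes with a window. The ETS letters CCGGAAG were in 24.3% of members against 9.93% of all genes, the YY1 letters AAGATGGCG in 10% against 1.64%, and the CRE letters TGACGTCA in 7.14% against 2.03%. The Sp1 letters GGGCGG (41.4% against 38.2%) and the E-box CACGTG (8.57% against 8.09%) were near the background. NRF-1 letters were in 1 of the 4 members that rose from naive to 3 h and had a window. They were in 1 of the 8 that fell and in 5 of the 23 that rose from 3 to 10 h. Each of these shares lies below the 30% of all members with a window, and no test was made between the groups. These are matches of letters in a window and not measured binding. The 27025 genes were not limited to those expressed in these libraries. The following stretches are the 150 bases upstream of the start, on the strand of the gene, with matches to the motifs above in capitals. Cycs had the largest rise at 3 h among members with a mean log2 CPM of at least 3, Ndufs6, Ndufa8 and Atp5k rose from 3 to 10 h, and Ndufa13 fell at 3 h and rose again at 10 h without NRF-1 letters in its stretch. The stretches are picked examples, and NRF-1 letters are more common among them than in the groups counted above. Those of Cox5a, Atp5b, Uqcrh and Cox7a2l, which also moved at 3 h, held Sp1 or ETS letters but no NRF-1 letters and are not shown.
Cycs, chr6:50566570-50566719, minus strand, NRF-1 letters: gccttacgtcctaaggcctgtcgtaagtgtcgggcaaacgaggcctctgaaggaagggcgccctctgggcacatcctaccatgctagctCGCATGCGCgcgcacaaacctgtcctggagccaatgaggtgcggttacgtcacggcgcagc
Ndufs6, chr13:73328483-73328632, minus strand, NRF-1 letters: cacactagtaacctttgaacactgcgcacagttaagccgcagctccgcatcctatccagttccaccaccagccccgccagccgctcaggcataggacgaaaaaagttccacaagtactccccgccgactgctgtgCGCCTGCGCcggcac
Ndufa8, chr2:36049339-36049488, minus strand, Sp1 letters upstream and NRF-1 letters downstream: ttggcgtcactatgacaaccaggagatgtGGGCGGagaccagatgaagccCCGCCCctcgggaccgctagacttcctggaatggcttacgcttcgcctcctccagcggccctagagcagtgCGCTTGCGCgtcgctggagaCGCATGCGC
Atp5k, chr5:108434400-108434549, minus strand, overlapping NRF-1 letters: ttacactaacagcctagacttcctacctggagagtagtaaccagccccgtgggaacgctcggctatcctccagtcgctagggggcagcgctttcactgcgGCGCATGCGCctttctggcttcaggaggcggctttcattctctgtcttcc
Ndufa13, chr8:69902021-69902170, minus strand, Sp1 letters only: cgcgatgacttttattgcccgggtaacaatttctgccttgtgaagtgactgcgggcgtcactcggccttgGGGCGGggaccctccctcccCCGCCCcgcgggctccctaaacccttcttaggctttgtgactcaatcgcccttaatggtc

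Over the whole course the members as a group went up, in steps and not evenly. The summed level of all 88 was 7962 ± 22.4 RPKM in naive cells and 7918 ± 225 after 3 h of LPS (SD, n = 2). It stood at 11440 ± 521 by 10 h and at 11382 ± 843 by 33 h. On day 4 it was 13747 ± 318 for expanded B cells and 15253 ± 427 for plasmablasts. The last step turned with the scaling, since with total counts in place of TMM the sum was 14969 and 14451 in the expanded libraries and 12752 and 13056 in the plasmablast ones, 0.877-fold in place of 1.11-fold. The stages of highest mean are given under TMM. Of 84 members with enough counts to place, 44 had their highest mean in plasmablasts, 18 in expanded B cells, 11 at 10 h, 7 at 33 h, 3 in naive cells and 1 at 3 h. The lowest mean was at 3 h for 42 and in naive cells for 36. For 78 of the 79 members with a level of at least 0.5 RPKM in each library, the heatmap of subunit genes shows this course gene by gene.

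**Figure D1:**
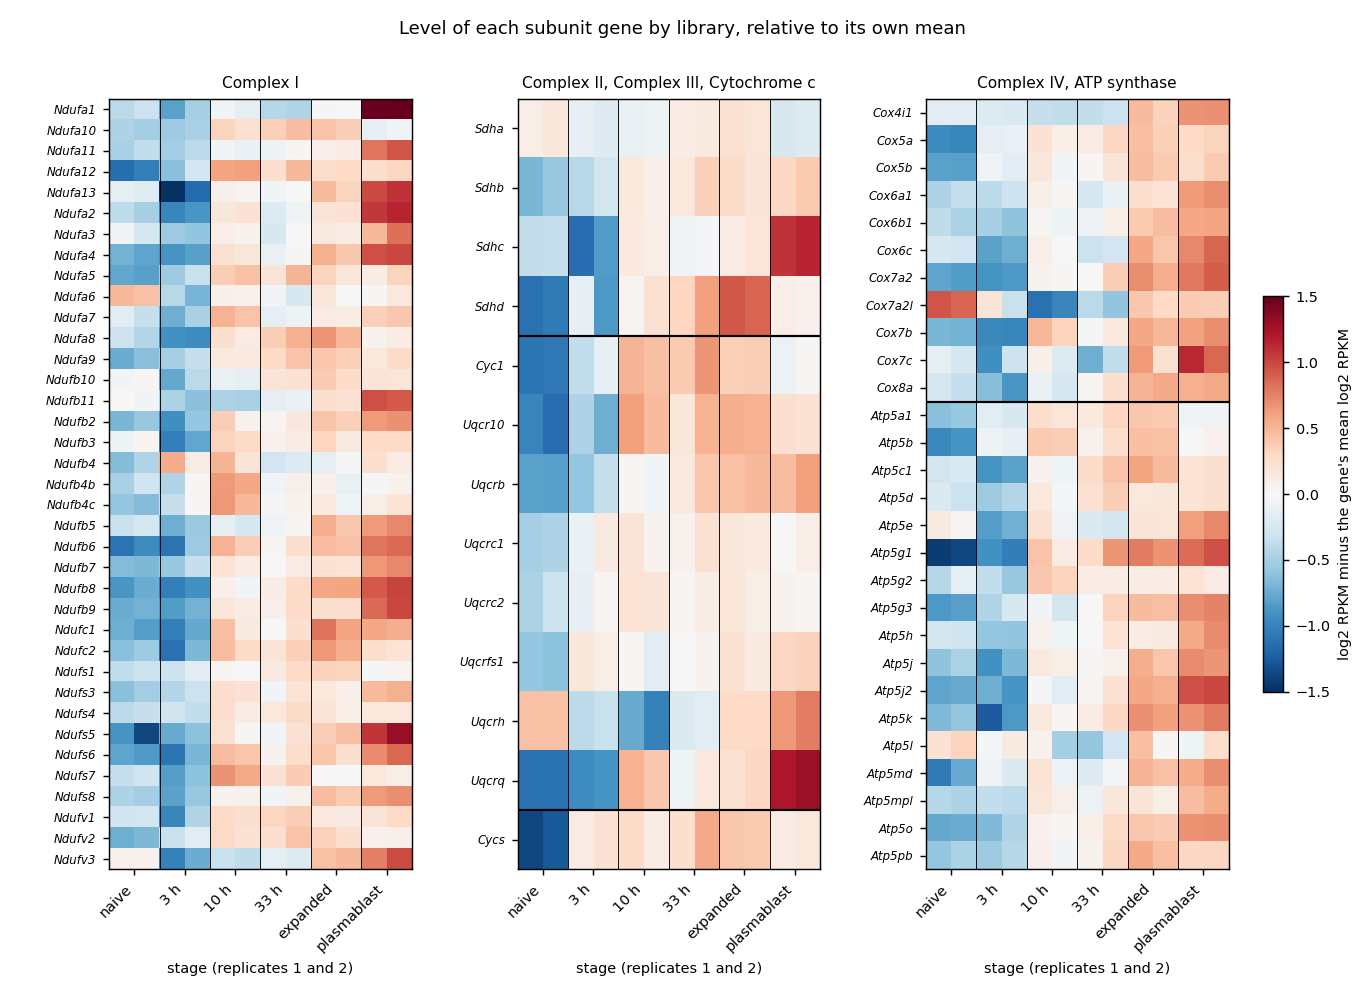
Heatmap of log2 RPKM minus each gene's own mean log2 RPKM over the 12 libraries (colour scale from -1.5 to 1.5), with genes in rows by complex and the 2 replicates of each stage in neighbouring columns. Most rows turn from blue in the naive and 3 h columns to red from 10 h on, while Cox7a2l, Uqcrh and Ndufa6 are high in naive cells, and the 9 members under 0.5 RPKM in any library and 1 other are left out.

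Within a complex the levels of the genes differed widely, and complex IV and ATP synthase kept 1 leading gene at all 6 stages. Atp5b, the catalytic beta subunit, led ATP synthase at each stage with a mean between 466 RPKM in naive cells and 1207 in expanded B cells. Cox4i1, the main isoform of subunit IV, led complex IV from 470 at 10 h to 966 in plasmablasts. Uqcrh, the hinge protein of complex III, led that complex in naive cells at 362 and in plasmablasts at 437, but Uqcrc1, a core protein, stood above it at 10 h with 220. Complex II was led by Sdha in naive cells at 134 and by Sdhb from 3 h on. Complex I was led by Ndufb10 in naive cells at 131, by Ndufb7 at 3 and 33 h, and by Ndufa4 at 10 h and on day 4, reaching 386 in plasmablasts. Cycs stood at 5.36 to 17.7 RPKM by stage mean, and 25.8% of the 81-base windows of its transcripts were shared with another gene, so that its level is uncertain. The plot of summed levels sets the complexes beside the mitochondrial genes.

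**Figure D2:**
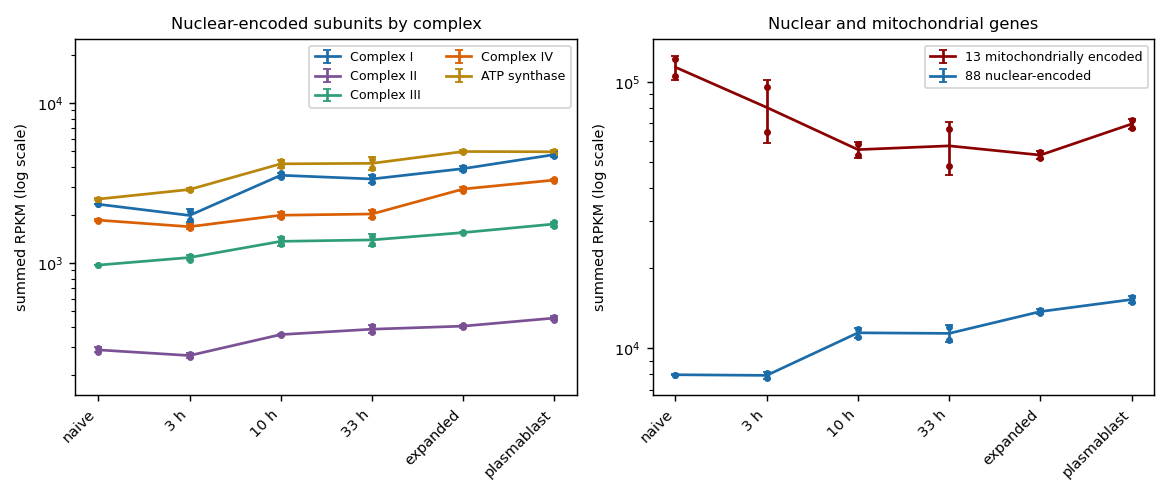
Summed RPKM on a log scale by stage, for the nuclear-encoded subunits of 5 complexes (left) and for all 88 members against the 13 mitochondrially encoded subunits (right). Points are libraries, lines join stage means and bars are SD (n = 2). The sum of all 88 rises mainly between 3 and 10 h and from 33 h to expanded B cells, while the mitochondrial sum falls from 113553 in naive cells to 55724 at 10 h.

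The first step, from naive cells to 3 h after LPS, moved members in both directions. Cycs and Cyc1 (cytochromes c and c1) rose, as did Cox5a, Atp5b, Uqcrfs1 and the barely expressed Cox4i2, while Ndufa13, Ndufa6, Ndufb3 and Ndufv3 of complex I fell, as did Cox7a2l, Uqcrh, Atp5e and the barely expressed Cox6b2. By edgeR's glmTreat 6 of 81 members rose and 8 fell, or 7.41% and 9.88%, against 21% and 24.3% of all 12767 genes tested. By the F-test 23 rose and 26 fell, against 34.6% and 36.3% of all genes. The median log2 fold change was -0.05 over the members and -0.03 over all genes. Scaled by total counts in place of TMM, 2 rose and 12 fell, where 16.4% and 29.2% of all genes did.

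Cycs, the mobile carrier between complexes III and IV, rose at the first step. The values put naive libraries at 5.16 and 5.56 RPKM, 3 h libraries at 14.4 and 15.5, 10 h libraries at 16.1 and 14.4, 33 h libraries at 15.8 and 19.6, expanded B cells at 17.6 and 17.5 and plasmablasts at 14.3 and 14.8. Each later library stood above both naive ones, and the step to 3 h was 1.48 ± 0.12 on the log2 scale (SE, adjusted p = 3.2e-06 by glmTreat), with no later step called. Cyc1, which holds the heme that reduces cytochrome c, had naive libraries at 69.4 and 70.6 RPKM, 3 h libraries at 115 and 136, 10 h libraries at 212 and 202, 33 h libraries at 195 and 236, expanded B cells at 190.2 and 192 and plasmablasts at 139.9 and 151. The step to 3 h was 0.84 ± 0.11 (SE, adjusted p = 0.0092 by glmTreat). That call was lost with total counts (adjusted p = 0.25 by glmTreat) and by DESeq2's Wald test (adjusted p = 0.095). It was also lost without replicate 2 at 3 h (log2 difference of 0.687). Uqcrfs1, the Rieske iron-sulfur protein that sits before cytochrome c1 in the same chain, had naive libraries at 110.5 and 108 RPKM, 3 h libraries at 186 and 177, 10 h libraries at 168 and 148, 33 h libraries at 167 and 171, expanded B cells at 193 and 182 and plasmablasts at 205 and 209, the naive ones being the lowest. Its call (0.73 ± 0.083, adjusted p = 0.031 by glmTreat) was lost under 8 alternatives, among them the fits without either naive library and without replicate 1 at 3 h (adjusted p = 0.059 to 0.75 by glmTreat or DESeq2).

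Cox5a, a matrix-side subunit of complex IV, had naive libraries at 121 and 119 RPKM, 3 h libraries at 211 and 218, 10 h libraries at 271 and 250.5, 33 h libraries at 255 and 291, expanded B cells at 319 and 299 and plasmablasts at 289 and 295. The step was 0.83 ± 0.088 (SE, adjusted p = 0.0044 by glmTreat). Cox5b, the zinc-binding subunit beside it, had naive libraries at 29.1 and 28.8 RPKM, 3 h libraries at 48.5 and 45.5, 10 h libraries at 56.9 and 49.3, 33 h libraries at 51.2 and 58, expanded B cells at 69.9 and 66.5 and plasmablasts at 61 and 66.4. Its first difference, 0.70 ± 0.11 (SE), passed the F-test (adjusted p = 9.7e-05, edgeR) but not glmTreat. Atp5b, the catalytic subunit that makes ATP, had naive libraries at 454 and 479 RPKM, 3 h libraries at 842 and 815, 10 h libraries at 1160 and 1146, 33 h libraries at 925 and 1062, expanded B cells at 1207 and 1206 and plasmablasts at 889.7 and 927. Its step to 3 h was 0.83 ± 0.081 (SE, adjusted p = 0.0031 by glmTreat). The calls of Cox5a and Atp5b at this step were lost when libraries were scaled by total counts, with an adjusted p of 0.26 by glmTreat for each.

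Ndufa13, also known as GRIM-19, an accessory subunit needed for the build-up of complex I, had the largest fall among members with a mean log2 CPM of at least 3. The values put naive libraries at 67.4 and 65.9 RPKM, 3 h libraries at 26.6 and 33.6, 10 h libraries at 78.7 and 76.7, 33 h libraries at 72.6 and 74.6, expanded B cells at 103 and 93.8 and plasmablasts at 148 and 158. It fell by 1.14 ± 0.11 on the log2 scale at 3 h (SE, adjusted p = 6.9e-05 by glmTreat) and rose by 1.36 ± 0.11 at 10 h (adjusted p = 9.4e-06 by glmTreat). Ndufb3 and Atp5e, the epsilon subunit of ATP synthase, were the other 2 of the 3 members that fell at 3 h and rose at 10 h. Their differences at 3 h were -0.87 ± 0.11 and -0.84 ± 0.1 (SE, adjusted p = 0.008 and 0.0078 by glmTreat). The fall of Ndufb3 was lost without replicate 1 at 3 h (glmTreat) and by DESeq2 (adjusted p = 0.062 and 0.052), that of Atp5e without naive replicate 1 (adjusted p = 0.052 by glmTreat), and the rise of Atp5e without replicate 1 at 10 h and by DESeq2 (adjusted p = 0.15 and 0.26). Ndufa6, an accessory subunit of the LYR family, had naive libraries at 115 and 111 RPKM, 3 h libraries at 61.7 and 50.7, 10 h libraries at 86.5 and 85.9, 33 h libraries at 80.2 and 69.9, expanded B cells at 92.8 and 82.2 and plasmablasts at 83.4 and 91.6, so that its naive libraries remained the highest. Ndufa6 fell by 1.02 ± 0.12 (SE, adjusted p = 0.00097 by glmTreat). Ndufv3, a small accessory subunit of the NADH-oxidizing arm, fell from 22.6 and 22.5 RPKM to 10.7 and 12.9 and reached 36.4 and 42.5 in plasmablasts. Uqcrh, the hinge protein, had naive libraries at 363 and 361 RPKM, 3 h libraries at 204 and 212, 10 h libraries at 158 and 132, 33 h libraries at 230.0 and 237, expanded B cells at 330.1 and 328 and plasmablasts at 419 and 456. The step to 3 h was -0.80 ± 0.093 (SE, adjusted p = 0.012 by glmTreat), and its steps to 10 and 33 h passed only the F-test, in opposite directions. The call of Uqcrh at 3 h was lost by DESeq2's Wald test (adjusted p = 0.072). The myeloid and erythroid marker sums given above also fell at this step, and their part in these results was not tested.

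**Figure D3:**
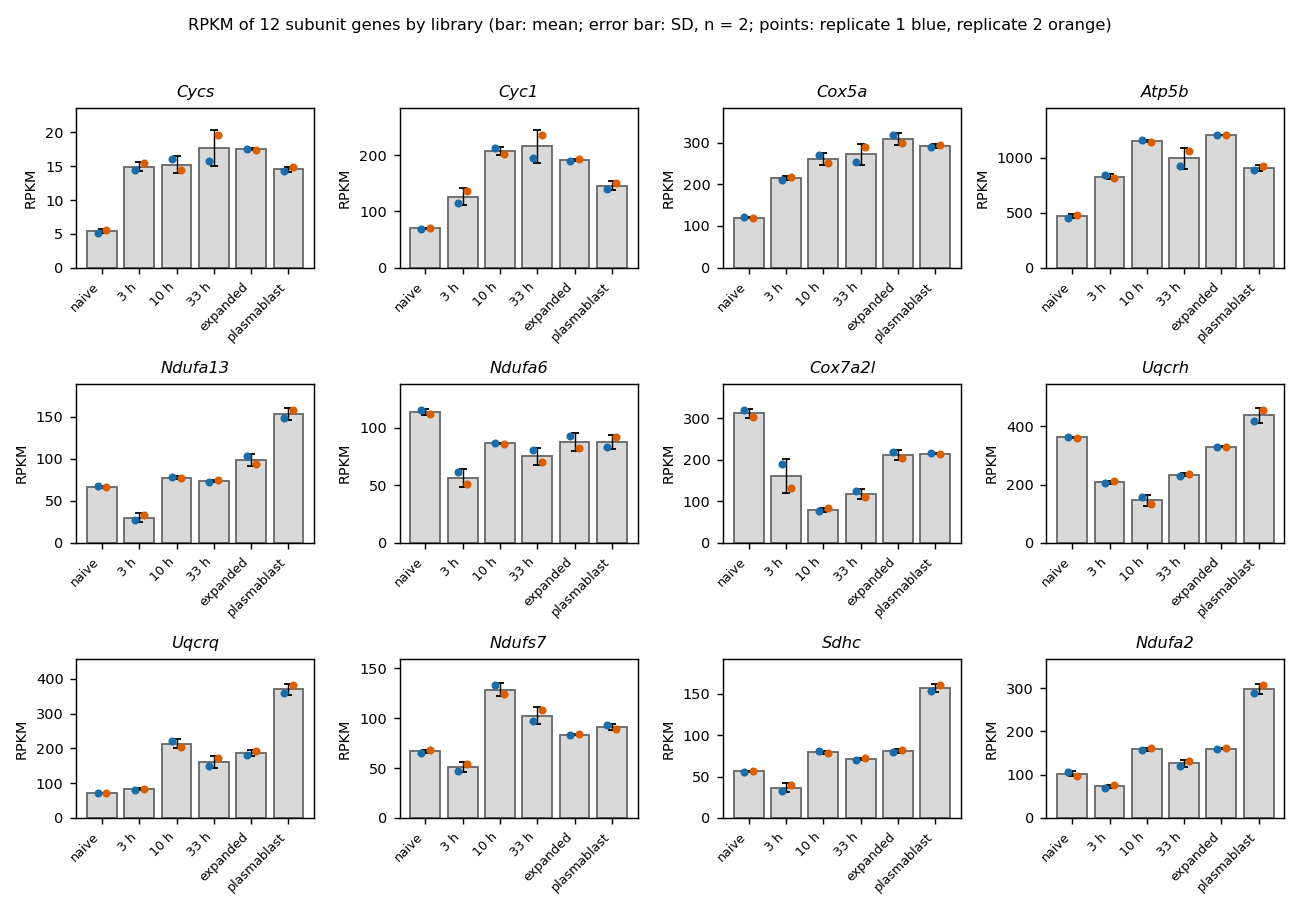
RPKM of 12 members by stage, with bars for the mean, error bars for the SD (n = 2) and points for replicate 1 (blue) and replicate 2 (orange). The upper row holds genes that rose at 3 h, the middle row genes that fell at 3 h, and the lower row genes that rose at 10 h. Uqcrq, Sdhc and Ndufa2 show a further rise in plasmablasts.

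From 3 to 10 h calls among the members were nearly all upward, and 74 of 81 differences were positive. 30 of 81 were called higher and 1 lower, or 37% and 1.23%, against 17.4% and 13.4% of all genes tested. By the F-test 65 rose and 3 fell, where 32.1% and 30.2% of all genes did. The median over the members was 0.62 on the log2 scale and the median of all genes 0.02. By exon length, the 35 tested members under 600 bases had a median of 0.73, where all genes of that length had 0.22. The 22 from 600 to under 1000 bases had 0.79 against 0.44, and the 24 of 1000 or more 0.50 against -0.003. Of these members 15, 9 and 6 were called higher, against 15.8%, 27.1% and 16.8% of all genes of those lengths. The part of length in this rise was not tested. Under total-count scaling the median of all genes moved to 0.35 and that of the members to 0.95, with 59 called higher and 0 lower, so the distance between the medians stayed at 0.60. Of all genes, 26.9% were called higher and 7.86% lower under that scaling. With DESeq2's Wald test in place of glmTreat 18 were called higher. The share of all genes called by that test is not given here, so the 18 have no background beside them.

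In complex I all 37 tested subunits differed in the positive direction, 19 were called higher and 35 passed the F-test, and the median was 0.81. Those called included Ndufa2, Ndufa4, Ndufa5, Ndufa7, Ndufa8, Ndufa10, Ndufa12, Ndufa13, Ndufb2, Ndufb3, Ndufb6, Ndufb8, Ndufb9, Ndufc1, Ndufc2, Ndufs6, Ndufs7 and Ndufv1. The medians of the other complexes were 0.54 in complex II (1 of 4 called), 0.35 in complex III (2 of 8), 0.45 in complex IV (3 of 14) and 0.59 in ATP synthase (5 of 17). Whether complex I differed from them was not tested. The summed level of complex I went from 1985 ± 180 to 3538 ± 130 RPKM (SD, n = 2), that of ATP synthase from 2883 ± 48.3 to 4171 ± 221, and that of complex IV from 1688 ± 56.8 to 1991 ± 82.1.

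Uqcrq, a small subunit of the ubiquinone-binding part of complex III, had the largest of these rises among members above the low-count range, with naive libraries at 71.2 and 71.5 RPKM, 3 h libraries at 80.6 and 84.1, 10 h libraries at 222 and 204, 33 h libraries at 148 and 173, expanded B cells at 181 and 192 and plasmablasts at 359 and 382. The 10 h libraries stood more than 100 RPKM above those of 3 h, a step of 1.37 ± 0.097 on the log2 scale (SE, adjusted p = 3.8e-06 by glmTreat). Ndufs7, which carries the last iron-sulfur cluster before ubiquinone, had naive libraries at 65.5 and 68 RPKM, 3 h libraries at 47.1 and 54.4, 10 h libraries at 133 and 124, 33 h libraries at 96.6 and 108, expanded B cells at 83.2 and 83.7 and plasmablasts at 93.3 and 88.8. Its step of 1.34 ± 0.1 (SE, adjusted p = 7e-06 by glmTreat) was its only call, and the 10 h libraries remained the highest of the 12.

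The electron-carrying subunits of complex I did not all move alike. Ndufv1, which binds NADH and FMN, had naive libraries at 66.3 and 67.7 RPKM, 3 h libraries at 41.6 and 59.8, 10 h libraries at 99.8 and 96.2, 33 h libraries at 102 and 105, expanded B cells at 91 and 89.7 and plasmablasts at 93.5 and 100.4. Its step was 0.95 ± 0.13 (SE, adjusted p = 0.0072 by glmTreat), lost under 3 alternatives, 1 of them the fit without replicate 1 at 3 h (adjusted p = 0.055 to 0.15 by glmTreat or DESeq2). Ndufs1, the largest subunit, with several iron-sulfur clusters, had naive libraries at 22.5 and 23.3 RPKM, 3 h libraries at 23.3 and 26.1, 10 h libraries at 29.5 and 28.8, 33 h libraries at 31.8 and 35.8, expanded B cells at 36.8 and 36.7 and plasmablasts at 28.6 and 29.8 and was called at no step. Ndufs3, Ndufs8 and Ndufv2, also core subunits, had differences of 0.62, 0.74 and 0.50 that passed the F-test but not glmTreat.

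In complex II, the membrane anchor Sdhc had naive libraries at 56.1 and 56.5 RPKM, 3 h libraries at 32.8 and 40.4, 10 h libraries at 80.3 and 78, 33 h libraries at 69.9 and 71.9, expanded B cells at 79.2 and 82.1 and plasmablasts at 154 and 160.3. It rose by 1.11 ± 0.098 from 3 to 10 h (SE, adjusted p = 0.00011 by glmTreat). Sdha, the flavoprotein that oxidizes succinate, had naive libraries at 130.3 and 137 RPKM, 3 h libraries at 112 and 106, 10 h libraries at 113 and 115, 33 h libraries at 131 and 135, expanded B cells at 143 and 138 and plasmablasts at 103 and 107 and was called at no step. Sdhb, the iron-sulfur subunit, had naive libraries at 89.6 and 97.2 RPKM, 3 h libraries at 108 and 119, 10 h libraries at 161 and 152, 33 h libraries at 161 and 184, expanded B cells at 175 and 165 and plasmablasts at 179 and 189. It was called at no single step, but was higher in plasmablasts than in naive cells (0.98 ± 0.094, SE, adjusted p = 0.0003 by glmTreat). That call was lost with total counts in place of TMM (adjusted p = 0.086 by glmTreat). Sdhd, the other anchor, was listed at 3.1 to 12.8 RPKM and was highest in expanded B cells.

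Cox7a2l was the 1 member called lower at 10 h. It encodes a protein that joins complexes III and IV into supercomplexes, and C57BL/6 mice are known for a shortened form of it. The RNA values put naive libraries at 319.9 and 303 RPKM, 3 h libraries at 189 and 131, 10 h libraries at 76.1 and 83.4, 33 h libraries at 126 and 109.9, expanded B cells at 219 and 204 and plasmablasts at 216 and 214. Its log2 differences were -0.96 ± 0.14 at the first step (SE, adjusted p = 0.0053 by glmTreat) and -1.003 ± 0.14 at the second (adjusted p = 0.0051 by glmTreat). The second call was lost without replicate 1 at 3 h (adjusted p = 0.11 by glmTreat) and with total counts (adjusted p = 0.24 by glmTreat). Naive libraries remained the highest of the 12.

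**Figure D4:**
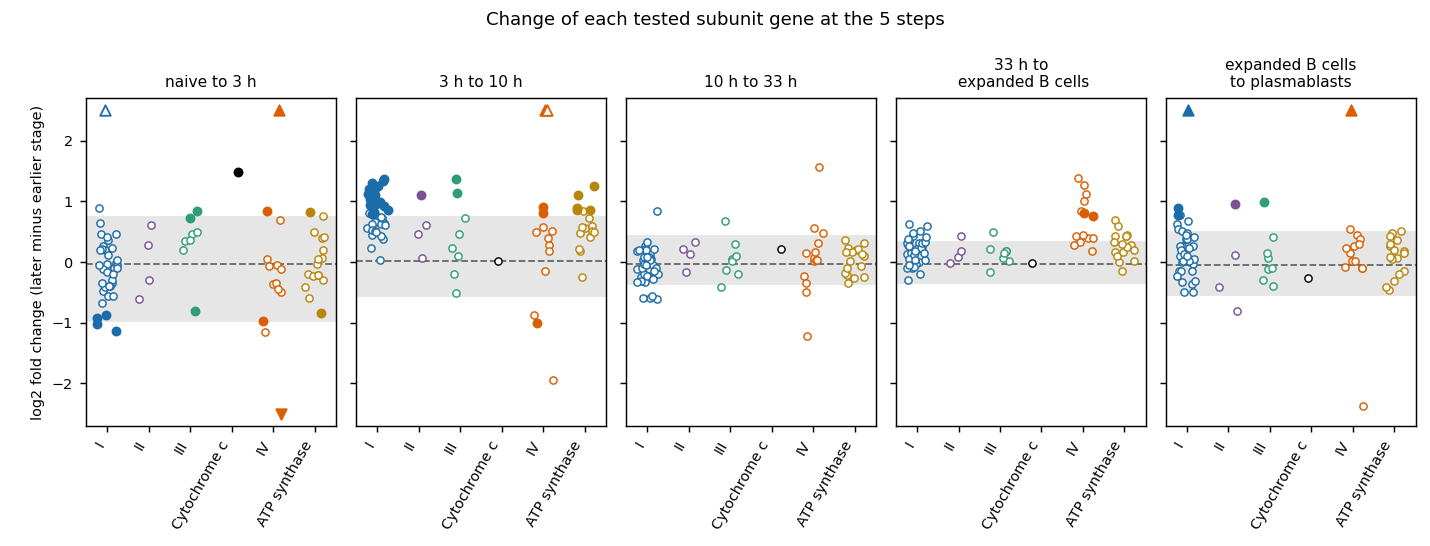
Log2 fold change of each tested member at the 5 steps, by complex, with filled points for genes called by glmTreat. The grey band holds the middle 50% of all tested genes and the dashed line their median. Values beyond 2.5 in size (7 points, all genes with few counts) are drawn as triangles at the edge. From 3 to 10 h nearly all members lie above the dashed line, and from 10 to 33 h no point is filled.

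Between 10 and 33 h, in cells still undivided, no member was called in either direction, while 10.1% of all genes tested rose and 4.45% fell by glmTreat. By the F-test 7 of 81 members rose and 13 fell, against 23.3% and 22.1% of all genes, and without replicate 1 at 10 h glmTreat called 1 higher. The 7 were Atp5c1, Atp5g3, Cox7a2l, Cox8a, Ndufb10, Sdha and Uqcrh, with log2 differences of 0.22 to 0.68. Those that fell by the F-test included Ndufs7, Ndufa7, Uqcrq, Cox6c and Atp5b. Atpif1, the inhibitor of ATP synthase and not a member by its symbol, was called at this step. The values put naive libraries at 44.8 and 47.5 RPKM, 3 h libraries at 35.6 and 34.6, 10 h libraries at 38 and 35.3, 33 h libraries at 63.4 and 73.2, expanded B cells at 123 and 117 and plasmablasts at 111 and 107. It rose by 0.90 ± 0.1 from 10 to 33 h (SE, adjusted p = 0.0091 by glmTreat) and by 0.81 ± 0.099 after it (adjusted p = 0.044 by glmTreat).

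From 33 h to expanded B cells on day 4, complex IV had the largest median difference, and its subunits Cox6c and Cox4i1 rose. 2 members were called higher and 0 lower, against 7% and 3.67% of all genes tested. By the F-test 28 rose and 1 fell, where 18.5% and 21.3% of all genes did, and 69 of 81 differences were positive with a median of 0.23, against -0.02 over all genes. In complex IV all 14 differences were positive, 10 passed the F-test and the median was 0.60, and its summed level went from 2027 ± 126 to 2903 ± 88.2 RPKM (SD, n = 2). The 14 include the low-count isoforms Cox4i2, Cox6a2, Cox6b2 and Cox7a1, and the median without them was not computed. The 1 that fell by the F-test was Ndufs7.

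The 2 called members were Cox6c and Cox4i1, both nuclear subunits of complex IV. Cox6c had naive libraries at 87.9 and 85.1 RPKM, 3 h libraries at 59.8 and 62.6, 10 h libraries at 110.5 and 104, 33 h libraries at 83.2 and 85.6, expanded B cells at 156 and 138 and plasmablasts at 171 and 191. Cox4i1 had naive libraries at 538 and 535 RPKM, 3 h libraries at 522 and 515, 10 h libraries at 475 and 465, 33 h libraries at 467 and 482, expanded B cells at 839 and 764 and plasmablasts at 962 and 969.8. The day 4 libraries of both genes did not overlap those of earlier stages. Both genes were picked by their call at this step, so this separation adds no support to it. The steps were 0.80 ± 0.096 for Cox6c and 0.76 ± 0.074 for Cox4i1 (SE, adjusted p = 0.047 and 0.043 by glmTreat). Each call was lost without either 33 h library, without replicate 1 of the expanded cells and with the replicate block (adjusted p = 0.058 for Cox6c and 0.051 for Cox4i1 by glmTreat). In all, 9 and 8 alternatives lost these calls (adjusted p of up to 0.34 by glmTreat or DESeq2).

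From expanded B cells to plasmablasts, both from day 4 of culture, few members were called. These were Uqcrq, Sdhc, Ndufa2, Ndufa11 and the low-level genes Cox4i2 and Ndufa4l2. In counts, 6 members were called higher and 0 lower, against 14% and 12.2% of all genes tested. By the F-test 28 rose and 13 fell, where 27.3% and 29.7% of all genes did, and the median was 0.13 against -0.05 over all genes. The result turned with the scaling. With total counts in place of TMM the median of all genes moved to -0.38 and that of the members to -0.21, and 1 member was called higher (Cox4i2) and 7 lower (Atp5a1, Atp5b, Cox7a1, Ndufa8, Ndufa10, Sdha and Sdhd). Of all genes, 9.31% were called higher and 23.2% lower under that scaling. The distance from the median of all genes was 0.17 under both scalings. Immunoglobulin variable genes, which were left out of the scaling, took 5.04% and 5.11% of the counts in plasmablasts and at most 1.26% elsewhere, and their part in the result was not tested.

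Among the called members, Uqcrq rose by a further 0.99 ± 0.094 on the log2 scale (SE, adjusted p = 0.00063 by glmTreat). Sdhc, with its plasmablast libraries above all others, had a second called step of 0.96 ± 0.096 (SE, adjusted p = 0.0012 by glmTreat). Ndufa2, an accessory subunit of the NADH-oxidizing arm, had naive libraries at 106 and 98 RPKM, 3 h libraries at 70.2 and 76, 10 h libraries at 157 and 161, 33 h libraries at 120.3 and 132, expanded B cells at 159 and 161 and plasmablasts at 289 and 307. Its step was 0.90 ± 0.089 (SE, adjusted p = 0.0023 by glmTreat). Ndufa11 went from 18.5 and 19.1 RPKM to 30.5 and 33.8 (adjusted p = 0.038 by glmTreat) and lost its call under 7 alternatives, 3 of them fits without a single library. With total counts the calls of Uqcrq, Sdhc and Ndufa2 were lost too (adjusted p = 0.23, 0.34 and 0.61 by glmTreat).

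A split by role, made after the values were seen, describes this step. The 17 tested genes for the core of complex I, all of complex II, Cyc1, Uqcrfs1, Cycs and the alpha, beta and gamma subunits of ATP synthase had a median of -0.27, with 3 higher and 9 lower by the F-test. The other 64 members had a median of 0.20, with 25 higher and 4 lower. Of all genes tested, 27.3% were higher and 29.7% lower by the F-test at this step, with a median of -0.05. The 17 genes include Sdhc, which rose by 0.96. At the step from 3 to 10 h the same split gave medians of 0.61 and 0.65. Atp5a1, the alpha subunit, is an example, with naive libraries at 393 and 407 RPKM, 3 h libraries at 539.5 and 513, 10 h libraries at 725 and 685, 33 h libraries at 669 and 756, expanded B cells at 803 and 791 and plasmablasts at 578 and 585. The plasmablast libraries lay below those of expanded cells, a difference of -0.46 ± 0.079 (SE, adjusted p = 0.00028 by edgeR's F-test, 1 by glmTreat). By exon length, the 24 tested members with an exon length of 1000 bases or more had a median of -0.18 at this step and the 35 under 600 bases one of 0.26, where all genes of those lengths had -0.06 and 0.03. The split by role was not adjusted for length, and scaling by total counts moved the median of all genes at this step downward, as given above.

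The net change from naive cells was upward in most members. At 33 h 32 of 81 were called higher and 1 lower (Cox7a2l), against 22.3% and 20.7% of all genes tested, with 62 and 6 by the F-test against 35.8% and 35.1%. In plasmablasts 54 were called higher and 0 lower, or 66.7%, against 26.6% and 23.4% of all genes, with 74 and 3 by the F-test against 38.2% and 35.9%. The median was 1.01, with 76 of 81 positive, and 23 of the members called here were called at no single step. Members under 600 bases of exon, from 600 to under 1000 and of 1000 or more had medians of 1.08, 1.2 and 0.791. All genes of those lengths had medians of 0.385, 0.366 and -0.0181, with 33%, 34.9% and 25.7% called higher. The part of length was not tested. Over the 5 steps 44 members were called at least once, 9 of them at more than 1 step, and 37 at none. The share of all genes called at least once was not counted, so the 44 have no background beside them. At the first step alone 21% of all genes were called higher and 24.3% lower. With total counts the calls were 38 higher and 1 lower, where 21.5% and 30.4% of all genes were called. The median was then 0.73, against -0.26 over all genes. The largest net rise among members above the low-count range was that of Uqcrq (2.38 ± 0.099, SE, adjusted p = 8.5e-10 by glmTreat), followed by Atp5g1 and Ndufs5. These comparisons share the naive libraries with the first step and with each other, and these are the libraries with myeloid and erythroid markers. The part of those markers was not tested.

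Of complex I, 23 of 37 tested members were called higher in plasmablasts than in naive cells. They included Ndufa3, Ndufa9, Ndufb5, Ndufb7 and Ndufs5, which had no call at a single step. The 14 without a call included Ndufa6, Ndufa7, Ndufa8, Ndufa10, Ndufb3, Ndufb10, the 3 Ndufb4 genes, Ndufs1, Ndufs4, Ndufs7 and Ndufv1. Of complex III, Uqcrb, Uqcr10 and Uqcrfs1 joined Uqcrq and Cyc1, and the core proteins Uqcrc1 and Uqcrc2 had differences of 0.53 and 0.43 that passed the F-test only. Of complex IV, 11 of 14 were called, among them Cox6a1, Cox6b1, Cox7c and Cox8a. Of ATP synthase, 11 of 17 were called. They included Atp5o, the stalk protein that ties the head to the membrane part, with Atp5h, Atp5j and Atp5pb of the same stalk, and Atp5j2, Atp5md and Atp5mpl of the membrane part. Atp5d, the delta subunit of the head, was not called. With total counts in place of TMM, several of the calls named here were lost (adjusted p = 0.061 to 0.57 by glmTreat). These were the calls of Ndufa3, Ndufa9, Ndufb5, Uqcrfs1, Cox7c, Cox8a, Atp5h, Atp5pb and Atp5mpl. That of Ndufa3 was lost under 5 alternatives in all. Atp5l was lowest of the complex at each stage with 4.04 to 6.6 RPKM by stage mean, but 74.4% of its 81-base windows were shared with other genes, most of all with a processed pseudogene, and its level is uncertain.

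Several subunits are encoded by more than 1 gene, and the balance within such sets changed for the Cox7a and subunit c genes. Of the summed RPKM of its set, Cox7a2l held 92.7% ± 0.35 in naive cells and 87.1% ± 3.4 after 3 h (SD, n = 2). Its share was 65.2% ± 1.7 by 10 h and 71.2% ± 5.6 by 33 h, and on day 4 it was 76.5% ± 0.43 for expanded B cells and 74.2% ± 1.2 for plasmablasts. Cox7a2, the common isoform of subunit VIIa, made up nearly all of the rest, with naive libraries at 23.6 and 23 RPKM, 3 h libraries at 22.1 and 22.6, 10 h libraries at 42.4 and 41.6, 33 h libraries at 40.9 and 53, expanded B cells at 66.8 and 60.1 and plasmablasts at 71.3 and 77.3. Cox7a2 rose by 0.91 ± 0.13 at 10 h (SE, adjusted p = 0.011 by glmTreat), the step at which Cox7a2l fell. Cox7a1, the isoform of heart and skeletal muscle, was at 0.0963 to 1.59 RPKM and was called at no step under TMM. Cox7a2 overlaps Tmem30a, a gene of 17.2 to 62.1 RPKM by stage mean, by 2482 bases.

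The 3 genes for subunit c, whose ring turns in the membrane, make the same mature protein from different precursors. Atp5g3 was the main one, with naive libraries at 232 and 240.2 RPKM, 3 h libraries at 309 and 358, 10 h libraries at 411 and 350.4, 33 h libraries at 421 and 531, expanded B cells at 586 and 579.8 and plasmablasts at 685 and 709. Atp5g1 had naive libraries at 10.6 and 11 RPKM, 3 h libraries at 15.1 and 13.8, 10 h libraries at 38 and 30.8, 33 h libraries at 34.2 and 45, expanded B cells at 48.6 and 45.1 and plasmablasts at 50.6 and 55.6. Atp5g1 rose by 1.26 ± 0.15 at 10 h (SE, adjusted p = 0.00039 by glmTreat), and its share of the set went from 4.22% ± 0.011 in naive cells to 8.01% ± 0.29 (SD, n = 2). Atp5g2 had naive libraries at 7.71 and 9.41 RPKM, 3 h libraries at 8.02 and 7.01, 10 h libraries at 13.7 and 13, 33 h libraries at 11.2 and 11.2, expanded B cells at 11.2 and 11.3 and plasmablasts at 12 and 11.3, with 35.5% of its windows shared with another gene.

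**Figure D5:**
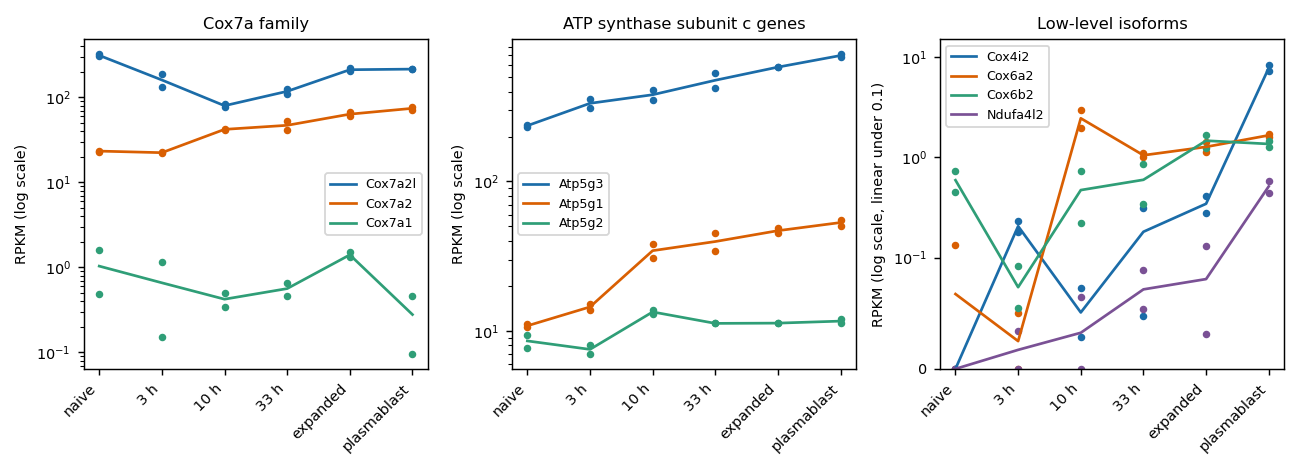
RPKM by stage for the Cox7a genes and the subunit c genes (log scale) and for 4 isoforms of low level (log scale, linear under 0.1). Points are libraries and lines join stage means (n = 2). Cox7a2l falls and Cox7a2 rises towards 10 h, and Cox4i2 reaches 7.21 and 8.34 RPKM in plasmablasts.

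Isoforms known from other tissues stayed low beside their partners. Cox4i2, an isoform of lung that responds to low oxygen, had 0 counts in both naive libraries, with 3 h libraries at 3 and 4 counts, 10 h libraries at 1 and 2, 33 h libraries at 2 and 8, expanded B cells at 8 and 10 and plasmablasts at 124 and 172. Its call at 3 h was lost without any 1 of the 4 libraries compared (adjusted p = 0.061 to 0.12 by glmTreat). In plasmablasts its mean of 7.77 RPKM was at least 55.2-fold the level that 3 counts in each naive library would give, yet only 0.798% of the Cox4i set. The gene spans 6308 bases that also belong to Bcl2l1, an inhibitor of apoptosis at 110 RPKM in plasmablasts and 396 at 3 h, and reads of the 2 genes may have been assigned to either. Cox6a2, the muscle isoform, had 3 and 0 counts in naive cells, 0 and 1 at 3 h, and 93 and 49 at 10 h, after which it stayed between 23 and 42. It was called higher at 10 h (adjusted p = 3.1e-05 by glmTreat). Cox6b2, known from testis, had 15 and 7 counts in naive cells, 1 and 1 at 3 h and 5 to 34 later, and its call at 3 h (adjusted p = 0.031 by glmTreat) was lost under 4 alternatives. Ndufa4l2, a relative of Ndufa4 that responds to low oxygen, had 0 counts in naive cells and 10 and 16 in plasmablasts, and its call in plasmablasts (adjusted p = 0.028 by glmTreat) was lost under 6 alternatives. It overlaps Shmt2, a gene of 173 RPKM in plasmablasts, by 32 bases.

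The common partners of these isoforms carried nearly all of the RNA of their sets. Cox6a1 had naive libraries at 266 and 286 RPKM, 3 h libraries at 277 and 295, 10 h libraries at 388 and 369, 33 h libraries at 304 and 340.5, expanded B cells at 430.5 and 422 and plasmablasts at 571 and 592. Cox6b1 had naive libraries at 149 and 139 RPKM, 3 h libraries at 138 and 127, 10 h libraries at 196 and 184, 33 h libraries at 182 and 208, expanded B cells at 255 and 268 and plasmablasts at 289 and 293, and both genes were called higher in plasmablasts than in naive cells. Cox8a, the only isoform of its set with more than a few counts, had naive libraries at 285 and 268 RPKM, 3 h libraries at 219.9 and 187, 10 h libraries at 319 and 288, 33 h libraries at 352 and 402, expanded B cells at 488 and 505 and plasmablasts at 496 and 505. In each of these genes both plasmablast libraries stood above both naive ones. The share of all genes that separate so was not counted. Ndufa4, long listed with complex I and now counted with complex IV, had naive libraries at 119 and 112 RPKM, 3 h libraries at 106 and 111, 10 h libraries at 228 and 220.0, 33 h libraries at 181 and 197, expanded B cells at 282 and 258 and plasmablasts at 382 and 389.9. Its difference between naive cells and plasmablasts was 1.74 ± 0.088 (SE, adjusted p = 1.4e-08 by glmTreat).

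4 members had too few counts for a test. Cox7b2 and Cox8c, isoforms known from testis, had 0 counts in all 12 libraries, and Cox8b, the muscle isoform, had at most 3 in any. Uqcr11, the smallest subunit of complex III, had at most 4 counts in any library, although the rest of its complex was at 23.7 RPKM or more in each library, and only 1.64% of its windows were shared with other genes. The cause was not tested, and absence of the RNA cannot be read from these counts. Of the Ndufb4 genes, the table counts Ndufb4b and Ndufb4c as genes of their own. RefSeq lists Ndufb4c as protein-coding and GENCODE as a processed pseudogene, so that its place among the members is uncertain. Their RPKM lay at 31.3 to 82.4, above the 3.12 to 7.25 of Ndufb4, and 34.8% of the windows of Ndufb4 were shared with Ndufb4c. Their calls were 0 at each step, and how reads were split among the 3 is uncertain.

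The 3 X-linked members were tested in the fit that kept sex chromosome, mitochondrial and other removed genes, 13854 in all. Ndufa1, an accessory subunit of the membrane arm, had naive libraries at 50.9 and 53.8 RPKM, 3 h libraries at 38.8 and 47.9, 10 h libraries at 65.4 and 61, 33 h libraries at 50 and 49.4, expanded B cells at 66.6 and 67.8 and plasmablasts at 189 and 208. The plasmablast libraries stood far above all others, and the step from expanded cells was 1.57 ± 0.11 (SE, adjusted p = 1.7e-06 by glmTreat), where 15.2% of the genes in this fit were called higher. Cox7b had naive libraries at 44.2 and 43.6 RPKM, 3 h libraries at 36.4 and 36.3, 10 h libraries at 101 and 89.7, 33 h libraries at 70.7 and 78.9, expanded B cells at 106 and 101 and plasmablasts at 109 and 116. It rose by 1.42 ± 0.095 at 10 h (SE, adjusted p = 2.3e-06 by glmTreat), where 17.2% of genes rose, and was higher at 33 h than in naive cells (adjusted p = 0.027 by glmTreat, with 21.3% of genes called higher). Ndufb11 had naive libraries at 127 and 123 RPKM, 3 h libraries at 91.3 and 81.7, 10 h libraries at 90.8 and 90.5, 33 h libraries at 115 and 118, expanded B cells at 149 and 147 and plasmablasts at 246 and 239.7. Its last step, 0.73 ± 0.08 (SE), missed the threshold (adjusted p = 0.053 by glmTreat). All 3 were called higher in plasmablasts than in naive cells, as were 27.1% of the genes in this fit.

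The 13 mitochondrially encoded subunits, which make up the centre of complexes I, III and IV and part of ATP synthase, had their highest sum in naive cells. Their sums put naive libraries at 105044 and 122063 RPKM, 3 h libraries at 65048 and 95426, 10 h libraries at 52972 and 58475, 33 h libraries at 66705 and 48422, expanded B cells at 51750 and 54546 and plasmablasts at 67317 and 71761. From expanded B cells to plasmablasts the sum was 1.31-fold with TMM but 1.03-fold with total counts. At that step 0 of 13 were called by glmTreat, where 15.2% of genes in the fit that kept removed genes were called higher. By the F-test 6 were higher. The F-test share in that fit was not counted, and in the main fit 27.3% of genes were higher. The replicates of 3 h and of 33 h differed more from each other than those of the other stages. From naive cells to 33 h 8 of 13 were called lower and 0 higher, against 20.5% of genes called lower in this fit, with ND5 the largest fall (-1.36 ± 0.22, SE, adjusted p = 0.002 by glmTreat). From 3 to 10 h ND6 alone was called lower, against 12.2% of genes, and from naive cells to plasmablasts 4 were called lower, against 23.1%. The mitochondrial sum was 14.3 ± 1.5 times the sum of the 88 nuclear members in naive cells and 10.1 ± 2.4 times after 3 h (SD, n = 2). The ratio was 4.88 ± 0.56 by 10 h and 5.11 ± 1.5 by 33 h, and on day 4 it was 3.87 ± 0.23 for expanded B cells and 4.56 ± 0.079 for plasmablasts. Libraries were made from polyadenylated RNA, so these sums compare libraries and do not give absolute amounts.

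Assembly factors, which build the complexes without staying in them, were called at several steps. Of 56 assembly factors, 53 were tested. From naive cells to 3 h 11 rose and 7 fell, where 21% and 24.3% of all genes did, led by Ndufaf4 of complex I (2.47 ± 0.12, SE, adjusted p = 8.8e-09 by glmTreat) and by Sdhaf4 of complex II in the other direction (-2.23 ± 0.2, adjusted p = 2.5e-06 by glmTreat). From 3 to 10 h 21 rose and 0 fell (17.4% and 13.4% of all genes) with a median of 0.72, and Nubpl, which delivers iron-sulfur clusters to complex I, rose most (2.28 ± 0.16, SE, adjusted p = 8.1e-07 by glmTreat). From expanded B cells to plasmablasts 1 rose and 4 fell (14% and 12.2% of all genes) with a median of -0.13, and all 4 that fell were factors of complex I, with Ndufaf6 the largest fall (-1.63 ± 0.17, SE, adjusted p = 5.6e-05 by glmTreat). In plasmablasts against naive cells 10 of 53 were higher and 1 lower, where 26.6% and 23.4% of all genes were.

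The citric acid cycle supplies NADH and succinate. The counts of its genes, of regulators and of carriers stand against shares over all genes of 21% higher and 24.3% lower from naive cells to 3 h, 17.4% and 13.4% from 3 to 10 h, 10.1% and 4.45% from 10 to 33 h, 14% and 12.2% from expanded B cells to plasmablasts, and 22.3% and 20.7% from naive cells to 33 h. Of its 17 tested genes 5 rose and 2 fell at 3 h, 4 rose at 10 h, 1 rose at 33 h, and 1 rose and 2 fell in plasmablasts, while 10 were called higher and 0 lower at 33 h than in naive cells. Idh2, the NADP-dependent isocitrate dehydrogenase of mitochondria, fell by 2.09 ± 0.13 at 3 h (SE, adjusted p = 8.7e-08 by glmTreat) and rose by 2.58 ± 0.13 at 10 h (adjusted p = 3.6e-08 by glmTreat), while Idh3a, of the NAD-dependent enzyme, rose by 1.08 ± 0.1 at 3 h and fell by 1.15 ± 0.1 in plasmablasts (adjusted p = 0.0001 and 6.9e-05 by glmTreat). Of 7 other routes of electron entry, Gpd2, the glycerol phosphate dehydrogenase of the inner membrane, fell by 1.72 ± 0.11 from expanded B cells to plasmablasts (SE, adjusted p = 7.8e-07 by glmTreat). Of 24 regulators and factors of mitochondrial gene expression, 8 rose and 2 fell at 3 h, and Pprc1, a coactivator of NRF-1, rose by 2.24 ± 0.1 (SE, adjusted p = 4.2e-09 by glmTreat) and then fell by 0.89 ± 0.096 at 10 h (adjusted p = 0.0036 by glmTreat). The largest fall of this list at 3 h was that of the barely expressed Ppargc1a (-3.25 ± 0.52, SE, adjusted p = 0.00034 by glmTreat). Nrf1 itself was at 11.8 ± 0.557 RPKM (SD, n = 2) in naive cells and 22.5 ± 2.68 at 3 h, and Tfam, the packaging factor of mitochondrial DNA, at 27.6 ± 0.274 and 27.2 ± 0.93. Gabpa was at 15.3 ± 1.44 and 34.1 ± 3.21, Yy1 at 86.5 ± 5.46 and 140 ± 13.3, and Esrra at 13.6 ± 1.04 and 11.2 ± 0.539. The RPKM of these genes are given without a test. Of 16 tested carriers and channels, Slc25a4, an ADP and ATP exchanger, rose most from 3 to 10 h (1.46 ± 0.084, SE, adjusted p = 5.1e-07 by glmTreat). Of these, 5 rose and 4 fell at 3 h, 6 rose at 10 h, 4 rose at 33 h, and 1 rose and 4 fell from expanded B cells to plasmablasts.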

How the data were processed

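The study's authors made TruSeq libraries from polyadenylated RNA. Alignment to mm10 and counting by featureCounts used the Rsubread package with the Entrez gene models it carries. What they deposited are raw counts per gene with exon lengths, neither normalized nor filtered, and each of the 12 per-sample files matched its column of the joint table. The labels also name CASAVA 1.8.2. Strand and the treatment of reads that map to several places are not given in the sources used here, so overlapping genes and copies are uncertain.

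IDs were matched to RefSeq (GRCm38.p6), 25275 of 27179. After the study's methods, mitochondrial, ribosomal RNA, X and Y chromosome, immunoglobulin variable and unmatched genes were removed, and filterByExpr kept 12767 genes. R 4.3.3 was used with edgeR 4.0.16 (TMM, robust quasi-likelihood fit over all 12 libraries, earlier dispersion method), glmTreat against 1.5-fold and Benjamini-Hochberg adjustment over all genes tested at 0.05. SE come from the F statistic. RPKM and log2 fold changes were computed from the deposited counts. DESeq2 1.42.0 was an alternative. p-values measure the spread between 2 libraries a stage. A stage at 0 was bounded by 3 counts per library, which covers counting error only. On simulated counts for naive cells against 3 h (12326 genes, 200 changed), glmTreat called 96% and 98% of 4-fold falls and rises and 0 of 12126 unchanged genes.

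The members and the gene lists were chosen with earlier results of these data known. Values in each library are given for the 3 largest called rises and falls at each step (mean log2 CPM of at least 3), the electron-carrying core, paralogue sets and X-linked and low-count members. The split by role and the Ndufb4 set were added after values were seen. The values of 1 member and 1 sort marker are not reported here. The alternatives were DESeq2 size factors or total counts instead of TMM, a Wald test (DESeq2), the F-test, other count filters, no robust mode, a replicate block, fits to 4 libraries, keeping removed genes, removing ribosomal protein genes and leaving out each library.

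Same-numbered libraries did not deviate together (correlations of -0.139 to 0.0839 between stages), so the replicate numbers were not used as pairs.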

Additional observations from a re-analysis of the deposited data

How the results depend on the processing

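With 2 libraries a stage and a threshold of 1.5-fold, counts of called members depend on the test. The F-test of any size called 23 higher and 26 lower from naive to 3 h, 65 and 3 from 3 to 10 h, 7 and 13 from 10 to 33 h, 28 and 1 from 33 h to expanded B cells, 28 and 13 from expanded B cells to plasmablasts, 62 and 6 from naive to 33 h and 3 lower from naive to plasmablasts. Total counts in place of TMM called 2 higher from naive to 3 h, 59 higher and 0 lower from 3 to 10 h, 1 higher from 33 h to expanded B cells, 1 higher and 7 lower from expanded B cells to plasmablasts and 1 lower from naive to plasmablasts. Beside the counts called higher, the shares of all genes were 16.4%, 26.9%, 6.99% and 9.31%, in that order. Beside the counts called lower, they were 7.86%, 23.2% and 30.4%. The Wald test of DESeq2 called 5 lower from naive to 3 h, 18 higher from 3 to 10 h and 0 higher from 33 h to expanded B cells. The shares of all genes under the Wald test are not given, so these counts have no background.

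The 2 calls from 33 h to expanded B cells fell to 1 without the filter on low counts, and to 0 with the replicate block, with removed genes kept and with ribosomal protein genes removed. From expanded B cells to plasmablasts 1 was called lower without the filter and 2 in the fit to 4 libraries. The replicate block changed no other count of called members (30 higher and 1 lower from 3 to 10 h), and for that step neither did a block with the numbers of the 3 h libraries crossed, which was run for it alone and added after the data were seen because the correlation of -0.139 between the 3 h and 10 h libraries was the lowest (30 and 1).

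Leaving out a library gave 0 to 1 lower from 3 to 10 h, 0 to 1 higher from 10 to 33 h, 0 to 2 higher from 33 h to expanded B cells and 0 to 1 lower from naive to plasmablasts. The calls from 3 to 10 h ranged from 25 to 34 higher and those from naive to plasmablasts from 51 to 53. The median over the members changed sign with total counts from expanded B cells to plasmablasts (0.13 to -0.21) and from 10 to 33 h (0.04 to -0.02). The cause of these differences was not tested, other than that the F-test has no fold threshold and that fits without a library have fewer degrees of freedom. Depth limits the low-count isoforms Cox4i2, Cox6a2, Cox6b2, Cox7a1 and Ndufa4l2.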
